A study of Homo sapiens with 2 samples.

Results

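NQO1, GCLM, GCLC, TXNRD1, TXN, SRXN1, SLC7A11, PGD and ME1 are target genes of the transcription factor NRF2 that supply glutathione, reduced thioredoxin and NADPH. They were taken by gene symbol from the deposited gene table, and all 9 were found among its 57736 genes. They were read in A549 cells, a lung adenocarcinoma line that is labelled wild type. According to the series title and labels, 1 library came from cells in which TGF-beta had induced epithelial to mesenchymal transition (EMT), a change towards a motile, mesenchymal state. The other library came from A549 cells with no treatment. The series' design text names a vimentin reporter line (A549 VIM RFP), but the labels do not say whether the untreated cells carried the reporter. The dose and duration of TGF-beta are not stated in the sources used here.

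NRF2, encoded by NFE2L2, binds antioxidant response elements together with small MAF proteins and raises transcription of genes that detoxify oxidants and electrophiles. Its inhibitor KEAP1 holds it in the cytoplasm and hands it to a CUL3 ubiquitin ligase for degradation until an oxidant modifies KEAP1. A549 cells carry a mutation of KEAP1, and the line is widely used as one in which NRF2 is active without added stress. SLC7A11 imports cystine, GCLC and GCLM form the enzyme that limits glutathione synthesis, and TXN, TXNRD1 and SRXN1 reduce oxidised proteins and peroxiredoxins. PGD and ME1 produce NADPH, and NQO1 uses NADH or NADPH to reduce quinones.

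Both the promoters and coding stretches from the exons that held the counts are shown, because the genes differed in which exons held counts. RefSeq promoters (build GRCh38.p14, 250 bases before to 50 after a gene start) matched 8 of the 9 genes with 9 starts, and SLC7A11 was not matched. The antioxidant response element core TGACNNNGC, searched on both strands (GCNNNGTCA on the other), lay in 5 of these 9 promoters, belonging to 4 genes. It lay in 4687 of all 35116 promoters, or 13.3%. The stricter form TGACTCAGC (GCTGAGTCA on the other strand), a subset of the first, lay in the ME1 promoter and in 0.561% of all promoters. GCLC, TXN, SRXN1 and NQO1 held no match in this window. The stretches around the matches upstream of the starts follow, 5′ to 3′ on the strand of the gene, with the match in capitals.
ME1, chr6:83431150-83431218, minus strand: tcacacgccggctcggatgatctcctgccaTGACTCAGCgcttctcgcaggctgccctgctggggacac
GCLM, chr1:93909431-93909494, minus strand: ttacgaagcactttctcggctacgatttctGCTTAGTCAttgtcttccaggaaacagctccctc
TXNRD1, upstream start, chr12:104215650-104215718, plus strand: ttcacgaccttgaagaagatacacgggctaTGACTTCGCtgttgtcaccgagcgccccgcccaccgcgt
TXNRD1, downstream start, chr12:104286900-104286968, plus strand: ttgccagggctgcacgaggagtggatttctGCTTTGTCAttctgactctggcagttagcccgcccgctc
PGD, chr1:10398833-10398901, plus strand: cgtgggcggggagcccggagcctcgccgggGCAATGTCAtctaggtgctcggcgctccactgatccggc
In ME1 and at the upstream TXNRD1 start the printed element read forward, and in the other 3 stretches it read on the opposite strand. The ME1 promoter and the upstream TXNRD1 promoter each also held an unprinted match on the opposite strand. It lay past the start in ME1 (GCACCGTCA) and across the start in TXNRD1 (GCTCCGTCA). A match describes letters only, and binding of NRF2 was not measured.

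The AmpliSeq kit amplifies a short segment of each gene, and for NQO1, PGD and TXN nearly all counts lay in 2 neighbouring exons. GCLM differed, with its counts in the first exon. Coding letters are from the GENCODE release 29 transcripts and exon positions are those of the deposited hg19 table. In the first 3 lines the lower case is the upstream exon and the capitals are the downstream exon. The GCLM line is the whole coding part of its first exon. Counts are known per exon only and amplicon positions were not available. Which of the printed bases were read, if any, is therefore not known.
NQO1, chromosome 16, exons 69752026 to 69752156 and 69748867 to 69748980: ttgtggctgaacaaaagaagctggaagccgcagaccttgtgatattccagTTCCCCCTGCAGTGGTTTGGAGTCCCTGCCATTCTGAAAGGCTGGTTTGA
PGD, chromosome 1, exons 10460450 to 10460629 and 10463128 to 10463193: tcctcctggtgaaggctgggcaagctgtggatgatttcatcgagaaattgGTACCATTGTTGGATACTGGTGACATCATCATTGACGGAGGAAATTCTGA
TXN, chromosome 9, coding exons 113018692 to 113018715 and 113013638 to 113013742: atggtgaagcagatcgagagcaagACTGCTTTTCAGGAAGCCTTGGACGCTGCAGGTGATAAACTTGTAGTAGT
GCLM, chromosome 1, 94374594 to 94374719: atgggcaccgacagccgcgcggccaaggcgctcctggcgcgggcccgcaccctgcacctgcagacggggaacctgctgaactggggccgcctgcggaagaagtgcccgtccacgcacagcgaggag
G and C made up 73.0% of the GCLM stretch of 126 bases, against 45.7% of the whole GCLM coding sequence. The junction stretches held 51.0% (NQO1), 46.0% (PGD) and 47.3% (TXN).

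There was 1 library per condition, so no difference has a replicate check and no p-value is given. Rounded expected counts summed to 597133 in TGF-beta-treated cells and 674784 in untreated cells, and values are given as CPM, counts divided by the library total after TMM scaling. A single count equals less than 2 CPM, and only 4 of the 9 genes had at least 20 counts in 1 library. Intervals are exact 95% intervals for counting error only, since amplified reads carry no molecular identifiers and cannot be counted as molecules. The 10 genes with the most counts held 43.6% of counts from TGF-beta-treated cells and 32.6% of those from untreated cells. Ribosomal protein genes were lower in TGF-beta-treated cells, with 64 of 76 lower by 2-fold or more and a median log2 ratio of -3.16. Of 12 epithelial and lung markers, 11 were detected in each library. Their sums were 125 counts in TGF-beta-treated cells and 317 in untreated cells, and the keratins KRT7 (32 against 179), KRT8 (16 against 53) and KRT19 (45 against 51) had the most counts. After scaling, KRT19 was 79.6 CPM against 71.5 CPM. Of the 9 markers with at least 5 CPM in 1 library, 3 were lower and 3 higher by 2-fold or more. Their median log2 ratio was 0.16. The higher ones were CDH1 (4 against 1), EPCAM (7 against 4) and SFTPB (5 against 1), all with few counts. Endothelial markers summed to 43 and 42 counts over 6 genes, with EMCN at 0 in both libraries. Leukocyte markers summed to 15 and 46 over 9 genes, with LYZ and MS4A1 at 0 in both. Fibroblast markers summed to 419 and 271 over 10 genes, of which COL1A1 held 356 and 196, with LUM and FAP at 0 in both. The part of these genes in the results below was not tested, and in bulk RNA fewer cells of a type and less RNA per cell cannot be told apart.

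Of the 9 genes, 5 were lower by 2-fold or more in TGF-beta-treated cells (NQO1, TXN, PGD, ME1 and SRXN1), 1 was higher by 2-fold or more (TXNRD1) and 3 lay between (GCLM, GCLC and SLC7A11). All 9 passed the filter of 5 CPM in 1 library. Over all 15401 genes that passed it, 26.7% were lower by 2-fold or more and 22.0% higher by 2-fold or more. The median log2 ratio of the 9 genes was -2.25, against 0.01 over all genes tested, and with scaling on ribosomal protein genes these medians were 0.97 and 3.26. With TMM scaling the counting interval lay wholly below 0 for 3 genes (NQO1, TXN and PGD) and wholly above 0 for GCLM. For the other 5 it held 0. How many of all genes tested had an interval clear of 0 was not counted, so these numbers have no background share. At 20 CPM or more in 1 library, 36.0% of 5341 genes were lower and 18.5% higher by 2-fold or more, and of the 4 members left 3 were lower and 0 higher. Among the lower genes, ME1 and SRXN1 had a single count in TGF-beta-treated cells.

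Scaling sets what these ratios are relative to. Against TMM, DESeq2 size factors shifted every log2 ratio by -0.22, total counts by -0.16, totals without the 10 top genes of either library by 0.10 and ribosomal protein genes by 3.51. Higher genes made up 45.2% of all 2-fold differences with TMM, 34.1% with DESeq2 size factors and 99.4% with scaling on ribosomal protein genes. Only the last of these turned the direction of any of the 5 lower genes, and it also put GCLC and every negative list median given below above 0. The ribosomal shift is common to all genes, but that scaling also changed which genes passed the filter, to 8 members and 22300 genes. Over these, the members' median of 0.97 stayed below the 3.26 of all genes tested.

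**Figure D1:**
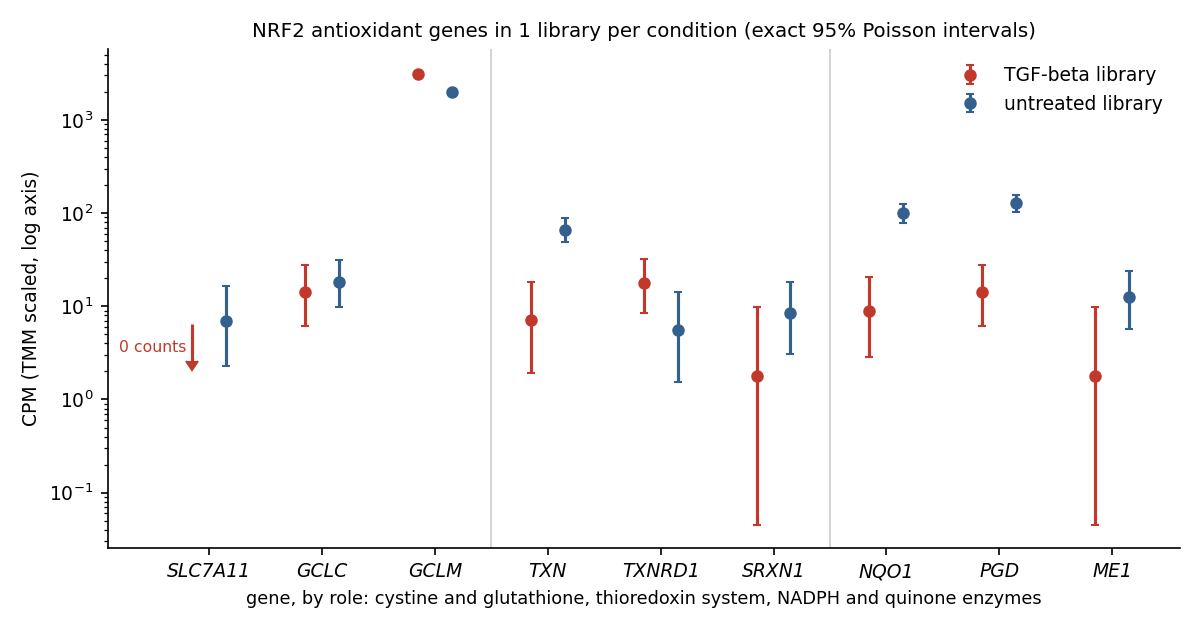
TMM scaled CPM (log axis) of the 9 genes in TGF-beta-treated cells (red, left of each pair) and untreated cells (blue, right), with exact 95% Poisson intervals; the arrow starts at the upper limit of 6.53 CPM for SLC7A11, which had 0 counts in TGF-beta-treated cells. GCLM lies above 1000 CPM in both libraries, and the intervals of TXN, NQO1 and PGD do not overlap between the libraries.

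Glutathione synthesis showed the widest spread of depth. GCLM, the modifier subunit that raises the catalytic efficiency of glutamate cysteine ligase, had 1765 counts in TGF-beta-treated cells and 1404 in untreated cells. These correspond to 3124 CPM (2980 to 3273) and 1969 CPM (1867 to 2075), so the value was higher in TGF-beta-treated cells and the intervals did not overlap. The log2 ratio was 0.67 (0.56 to 0.77), or 1.59-fold higher, and it stayed between 0.45 and 0.77 with the 4 other scalings that do not use ribosomal protein genes. It did not reach 2-fold, except with ribosomal protein scaling, where it was 4.18.

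GCLC, the catalytic subunit, had 8 counts in TGF-beta-treated cells and 13 in untreated cells, or 14.2 CPM (6.11 to 27.9) and 18.2 CPM (9.71 to 31.2). Its intervals overlapped, and the log2 ratio was -0.36 (-1.84 to 1.02). SLC7A11, the cystine transporter of system xc-, had 0 counts in TGF-beta-treated cells against 5 in untreated cells, where it measured 7.01 CPM (2.28 to 16.4). With the 0 set to a floor of 3 counts (5.31 CPM) its log2 ratio was -0.40, and the counting interval reached up to 0.46. With a floor of 1 count the ratio was -1.99 and on the log2(CPM + 1) scale it was -3.002, and 6 of the 9 genes were then lower by 2-fold or more, against 30.9% and 30.2% of all genes tested. A difference in GCLC or SLC7A11 was not detectable at this depth.

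Within the thioredoxin system, the ratios of TXN and TXNRD1 had opposite signs, and only that of TXN was outside counting error. TXN, the small dithiol protein that reduces protein disulfides, had 4 counts in TGF-beta-treated cells and 47 in untreated cells. These are 7.08 CPM (1.93 to 18.1) and 65.9 CPM (48.4 to 87.6), without overlap. TXN was 9.31-fold lower, at a log2 ratio of -3.22 (-5.15 to -1.77) that became 0.29 with ribosomal protein scaling.

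TXNRD1, the selenoprotein that reduces thioredoxin with NADPH, had 10 counts in TGF-beta-treated cells and 4 in untreated cells, or 17.7 CPM (8.49 to 32.5) and 5.61 CPM (1.53 to 14.4). The value was higher in TGF-beta-treated cells, but the intervals overlapped. The log2 ratio of 1.66 had an interval from -0.14 to 3.78. SRXN1, which repairs overoxidised peroxiredoxins, had 1 count in TGF-beta-treated cells and 6 in untreated cells. Its log2 ratio of -2.25 had an interval from -7.77 to 0.79, so the direction was not resolved.

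NQO1 and PGD, with TXN, had the lowest ratios. NQO1 had 5 counts in TGF-beta-treated cells and 71 in untreated cells, or 8.85 CPM (2.87 to 20.7) and 99.6 CPM (77.8 to 126). It was 11.3-fold lower, at a log2 ratio of -3.49 (-5.16 to -2.20). PGD, the pentose phosphate enzyme 6-phosphogluconate dehydrogenase, had 8 counts in TGF-beta-treated cells and 92 in untreated cells, or 14.2 CPM (6.11 to 27.9) and 129 CPM (104 to 158). It was 9.11-fold lower, at a log2 ratio of -3.19 (-4.44 to -2.15).

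For both genes the TGF-beta interval lay below the untreated one. With ribosomal protein scaling their log2 ratios were 0.017 (NQO1) and 0.32 (PGD). ME1, the cytosolic malic enzyme, had 1 count in TGF-beta-treated cells and 9 in untreated cells, at a log2 ratio of -2.83. Its interval ran from -8.29 to 0.02 and so reached equality with TMM scaling. With DESeq2 size factors (shift of -0.22) or total counts (shift of -0.16) the same interval lies below 0, so this reading depends on the scaling.

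**Figure D2:**
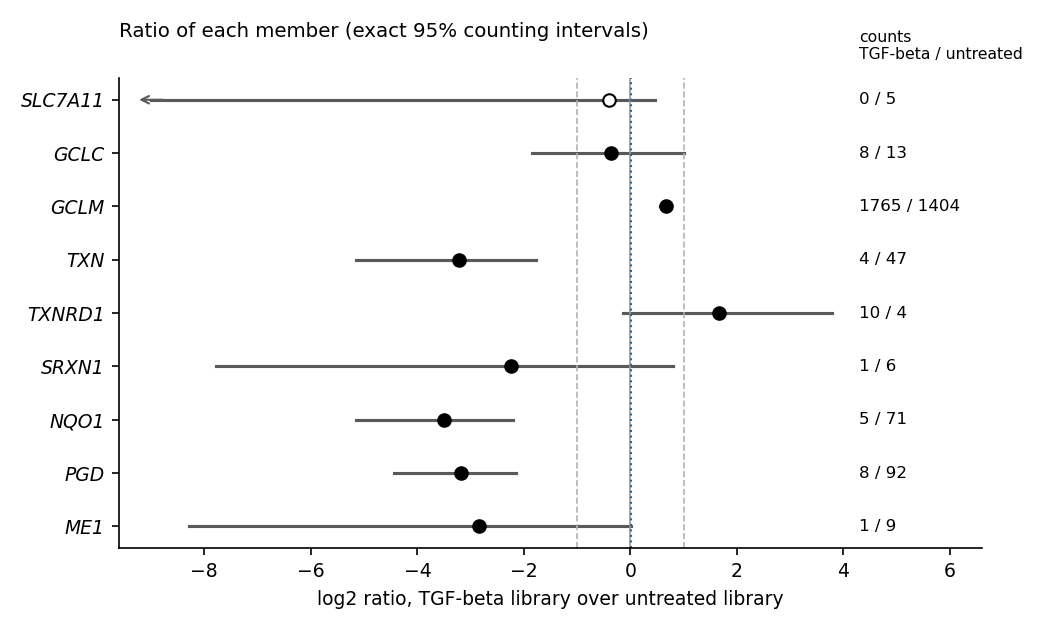
Log2 ratio of TGF-beta-treated over untreated cells for each gene (points) with exact 95% counting intervals (lines); the open point is set by the floor of 3 counts and its line runs on to the left, dashed lines mark 2-fold and the dotted line is the median of all genes tested, 0.01. Intervals of TXN, NQO1 and PGD lie below 0 and that of GCLM lies above it, and with ribosomal protein scaling every point moves right by 3.51, which takes each point left of 0 past it, as it does the median of all genes.

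Summed over the 9 genes, most counts were those of GCLM, and the sum was higher in TGF-beta-treated cells. The sum was 1802 counts in TGF-beta-treated cells, or 0.302% of that library (exact binomial interval 0.288% to 0.316%), and 1651 in untreated cells, or 0.245% (0.233% to 0.257%). Without GCLM, an alternative added after seeing the data, the other 8 genes had 37 counts in TGF-beta-treated cells and 247 in untreated cells. That was 0.00620% and 0.0366% of all counts. The summed log2 ratio was 0.46 (0.36 to 0.56) with GCLM and -2.40 (-2.94 to -1.90) without it.

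The baseline level of these NRF2 targets in untreated cells, a line with mutated KEAP1, ranged widely. By untreated count among genes with any count there, GCLM stood at percentile 99.8, PGD at 97.3, NQO1 at 96.5 and TXN at 94.6. ME1 stood at 70.4, GCLC at 78.8 and SRXN1 at 59.7. SLC7A11 stood at 54.7 and TXNRD1 at 47.8, near the middle of the detected genes. Per kilobase of exon, GCLM stood at 99.6, TXN at 97.6, PGD at 96.5 and NQO1 at 95.4, against 24.3 for TXNRD1 and 20.8 for SLC7A11. The kit amplifies a short segment of each gene, so counts need not grow with exon length. Division by that length places genes with long exons lower, and the per kilobase values are given only as an alternative. The efficiency of each amplicon is not known either, so all these percentiles order counts and not transcripts.

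Where the counts lay differed between the genes. Exons of a gene that overlap were joined into blocks, numbered from the 5′ end. In NQO1, blocks 3 and 4 of 7 held 25.5% and 74.5% of the TGF-beta counts, and 24.2% and 74.4% of the untreated counts. In PGD, blocks 4 and 5 of 14 held 78.6% and 21.4% of the TGF-beta counts, and 77.2% and 20.6% of the untreated counts. In these genes the counts were fewer in TGF-beta-treated cells but lay in the same pair of exons in both.

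In TXN, blocks 1 and 2 of 5 held 87.3% and 12.7% of the TGF-beta counts, against 75.6% and 24.4% of the untreated counts. GCLM had 99.9% of its counts in block 1 of 8 in each library, the first exon printed above in its coding part. Outside that block, GCLM had 1 expected count in TGF-beta-treated cells and 1.33 in untreated cells, so the other exons gave no measure of a difference.

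Among the sparse genes, ME1 had counts in different blocks in the libraries, and GCLC in partly different ones. The single TGF-beta count of ME1 lay in block 3 of 14, whereas the 9 untreated counts lay in blocks 13 and 14. In GCLC, block 17 of 18 held 0 counts in TGF-beta-treated cells and 7 in untreated cells, while block 11 held 4 and 1.5. Block 8 of GCLC held 2.72 and 3.56, in both libraries. TXNRD1 and SRXN1 kept their main block. In TXNRD1, block 1 of 27 held 7 of the 10 TGF-beta counts and 3 of the 4 untreated counts, and in SRXN1 block 1 of 2 held 100% and 74.6%. The counts of NQO1 overlapped an exon of CTD-2033A16.1 on the opposite strand, which had 0 counts in both libraries. Those of SRXN1 overlapped the gene ENSG00000270299 on the same strand, with 0 counts in TGF-beta-treated cells and 1 in untreated cells.

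**Figure D3:**
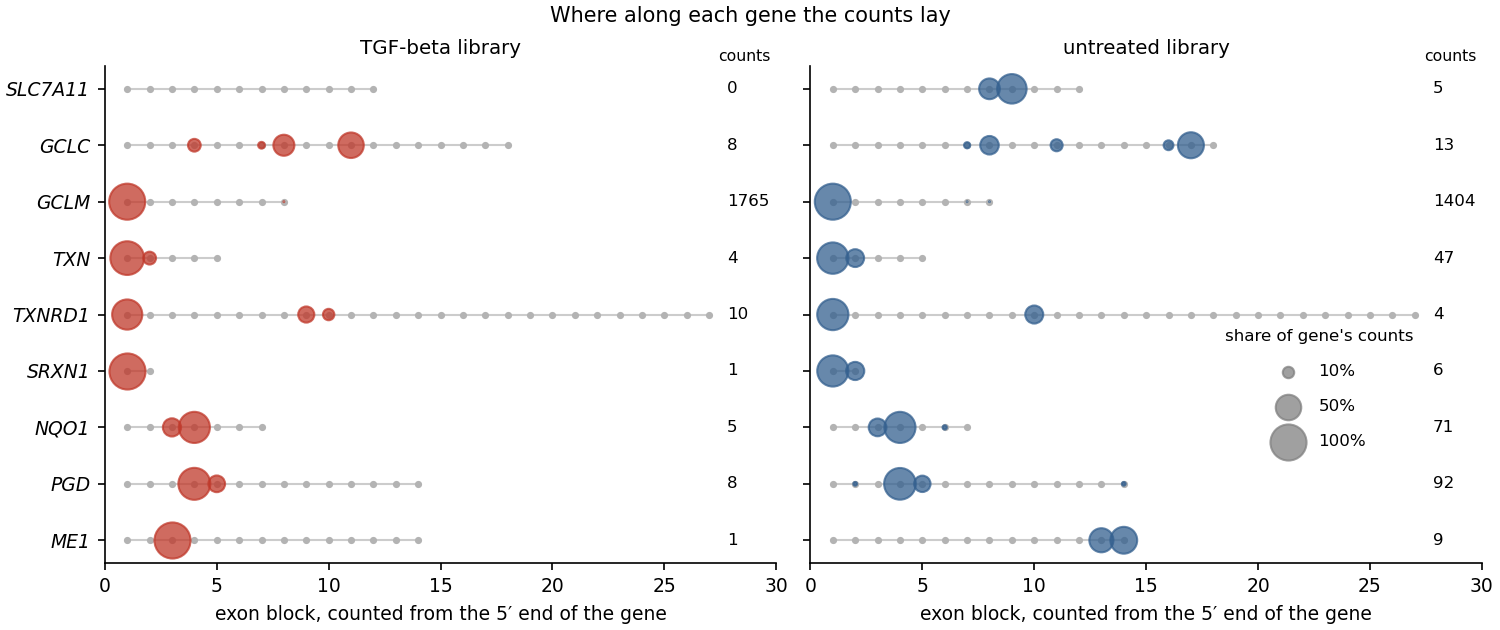
Share of each gene's counts by exon block, numbered from the 5′ end, in TGF-beta-treated cells (left) and untreated cells (right); circle area is the share, grey dots are all blocks of the gene and the numbers at the right are its counts. NQO1 and PGD keep the same pair of neighbouring blocks in both libraries, GCLM lies in block 1 with 99.9%, and ME1 lies in different blocks in the libraries.

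Across all genes with at least 20 CPM in 1 library, ratios differed between genes grouped by how their counts lay along the gene, a grouping chosen after seeing the data. Of 3368 genes with under 90% of their counts in 1 block, as in NQO1, PGD and TXN, 42.5% were lower by 2-fold or more and 15.9% higher by as much, and the median log2 ratio was -0.52. Of 1103 genes with at least 99% in 1 block, as in GCLM, 29.8% were lower and 23.3% higher (median 0.04). The 870 genes between had 18.6% lower and 22.3% higher and a median of 0.22. The part of this grouping in the difference between GCLM and the other genes was not tested.

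The regulators of NRF2 were thinly covered. NFE2L2 had 2 counts in TGF-beta-treated cells and 8 in untreated cells, KEAP1 had 5 against 4 and CUL3 had 1 against 4, and all 3 intervals held 0. Of 15 regulators and partners 14 passed the filter, with 6 lower by 2-fold or more, 1 higher and a median log2 ratio of -0.80. Over all genes tested, 26.7% were lower and 22.0% higher by as much. MAFK, a small MAF partner of NRF2, had 3 counts against 39, at a log2 ratio of -3.36 (-5.70 to -1.71). SQSTM1, the autophagy receptor p62 that binds KEAP1, had 27 against 74, with -1.12 (-1.81 to -0.47). BACH1, a repressor at the same elements, had 26 against 20, with 0.71 (-0.18 to 1.63).

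The list of cystine and cysteine supply had 5 of 11 tested genes lower by 2-fold or more in TGF-beta-treated cells and 1 higher. The shares over all genes tested were 26.7% and 22.0%, and the median log2 ratio of the list was -0.91. SLC3A2, the heavy chain that partners SLC7A11, had 20 counts in TGF-beta-treated cells against 188 in untreated cells, at a log2 ratio of -2.90 (-3.64 to -2.23). SLC7A5, another light chain that pairs with SLC3A2, had 22 against 242 and -3.12 (-3.82 to -2.49). The neutral amino acid transporter SLC1A4 had 40 against 48, within counting error.

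Of 20 tested genes that complete, recycle or use glutathione, 10 were lower by 2-fold or more and 1 higher, against 26.7% and 22.0% of all genes tested. Their median was -1.01, or -0.34 with a filter of 1 CPM and -1.66 with one of 20 CPM. MGST1, a microsomal glutathione transferase, had 1 count against 94, at a log2 ratio of -6.22 (-11.54 to -3.71). The glutathione peroxidase GPX1 had 4 against 56 and -3.47 (-5.40 to -2.04). Glutathione reductase, GSR, had 162 against 174 and 0.23 (-0.09 to 0.55). HAGH, a hydrolase of the glyoxalase pathway, was the higher one, with 319 against 59 and 2.77 (2.37 to 3.20).

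The thioredoxin and peroxiredoxin list had 8 of 23 tested genes lower (34.8%) and 3 higher (13.0%), with a median of -0.66. Its lower share lay near the 26.7% of all genes tested, of which 22.0% were higher. NXN, a thioredoxin-like protein, had 1 count against 15, at a log2 ratio of -3.57 (-8.97 to -0.87), and the peroxiredoxin PRDX5 had 27 against 61, with -0.84 (-1.55 to -0.16). Mitochondrial thioredoxin reductase, TXNRD2, had 22 against 33, within counting error. MSRB3, a methionine sulfoxide reductase, had 2134 against 430 and a log2 ratio of 2.65 (2.50 to 2.80). Like GCLM, MSRB3 had 99.9% of its counts in 1 exon block. PRDX1, a cytosolic peroxiredoxin looked at after its values were seen, had 0 counts in both libraries. For scale, 3 counts equal 5.31 CPM in TGF-beta-treated cells and 4.21 CPM in untreated cells. Whether the kit and the counting capture PRDX1 was not tested, so these 0 counts do not measure its expression.

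NADPH producing enzymes other than PGD and ME1 had 6 of 15 tested genes lower and 1 higher, against 26.7% and 22.0% of all genes tested. Their median was -0.73, or -1.93 with a filter of 20 CPM. TALDO1, transaldolase of the pentose phosphate pathway, had 4 counts in TGF-beta-treated cells against 47 in untreated cells, at a log2 ratio of -3.22 (-5.15 to -1.77). Transketolase, TKT, had 28 against 50, with -0.50 (-1.22 to 0.19). SHMT2, a mitochondrial enzyme of folate metabolism, had 1 against 30 and -4.57 (-9.92 to -1.98).

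Other NRF2 targets had 21 of 34 tested genes lower by 2-fold or more and 2 higher, against 26.7% and 22.0% of all genes tested. Their median of -2.30 turned to 2.26 with ribosomal protein scaling and was -1.25 with a filter of 1 CPM. This list repeats genes of the lists above, among them MGST1, GSR, TALDO1 and TKT. BLVRB, biliverdin reductase B, had 1 count against 35, at a log2 ratio of -4.79 (-10.14 to -2.22). ALDH3A1, an aldehyde dehydrogenase, had 1025 against 994 and 0.38 (0.25 to 0.51). AKR1C3 had 63 against 79, with 0.01 (-0.49 to 0.51), and AKR1C2 had 3 against 162, with -5.42 (-7.71 to -3.85). Reads of these near-identical aldo-keto reductases can be divided between family members.

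Other groups lay low as well, but they are not all separate from the other NRF2 targets. FTH1, FTL, HMOX1 and SLC40A1 of the ferritin list are counted in both. So are AKR1B1, AKR1B10, AKR1C1, AKR1C2, AKR1C3, ALDH1A1 and ALDH3A1 of the reductase and dehydrogenase list. The ferritin, heme oxygenase and metallothionein list had 7 of 10 tested genes lower and 2 higher, with a median of -3.44. Over all genes tested, 26.7% were lower and 22.0% higher. Aldo-keto reductases and aldehyde dehydrogenases had 9 of 17 lower and 1 higher, with a median of -1.04 (-2.08 at 20 CPM), and glycolytic enzymes had 13 of 17 lower and 1 higher, with a median of -2.66. With ribosomal protein scaling these medians were 0.31, 2.26 and 0.85. The median of the 9 genes, -2.25, fell among these values, and no difference between the lists was tested.

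**Figure D4:**
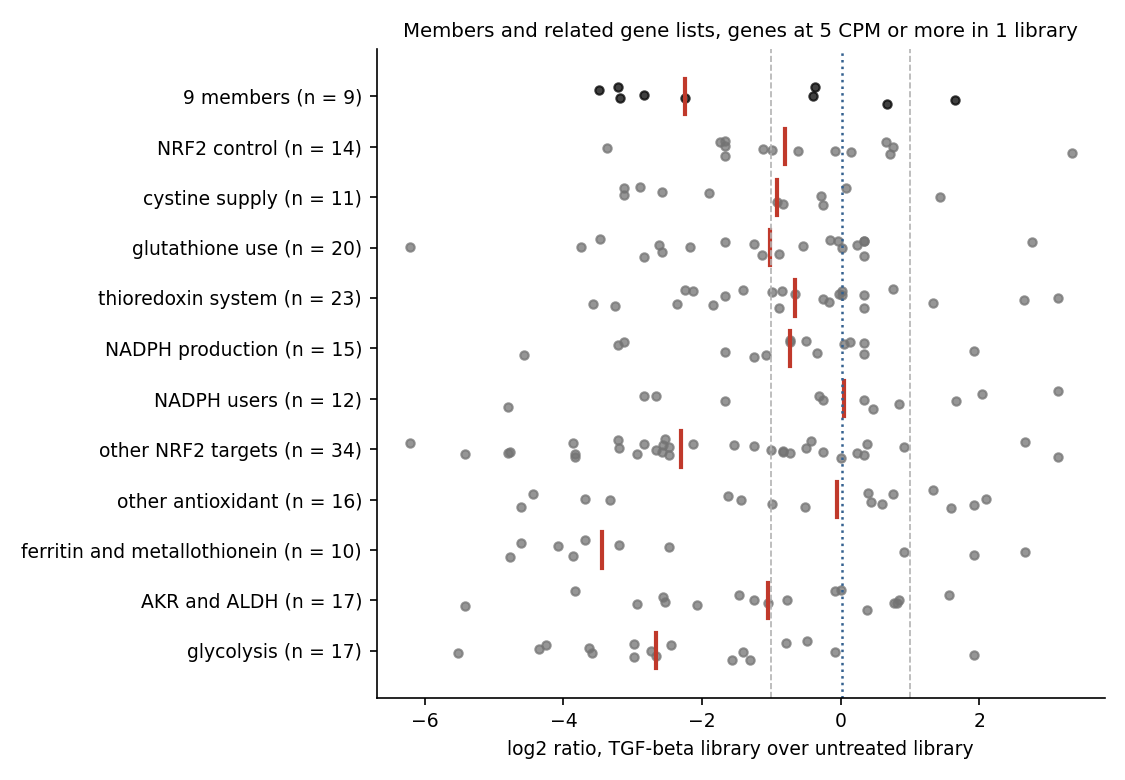
Log2 ratio of TGF-beta-treated over untreated cells for each gene that passed 5 CPM in 1 library (points, jittered vertically), by list, with the list median (red bar), 2-fold (dashed lines) and the median of all genes tested (dotted line, 0.01). The 9 genes have a median of -2.25, between other NRF2 targets at -2.30 and glutathione use at -1.01, and with ribosomal protein scaling all points move right by 3.51, past 0 for these medians, as does the median of all genes.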

How the data were processed

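Expected counts, which are estimates and not always whole, were deposited by the authors per gene, not normalized, for 2 libraries, 1 per condition. Per the labels' protocols, 10 ng of total RNA entered the AmpliSeq Transcriptome kit. Build hg19 and the tool DESeq stand in the submitters' processing notes with no role, and the aligner, counting program and use of strand were not stated in the sources used here. Of gene values above 0, 53.1% (TGF-beta) and 45.3% (untreated) were whole within 1e-06. Gene entries were rounded and scaled by TMM in edgeR 4.0.16 (R 4.3.3), with factors of 0.946 and 1.06. Genes entered at 5 CPM or more in 1 library. Ratios are TGF-beta over untreated without a pseudocount, and a 0 was set to a floor of 3 counts. Intervals are exact Clopper-Pearson, binomial or Poisson intervals from scipy 1.17.1. Only the code for the ratio intervals was tried on simulated data, with Poisson counts for genes at a mean of 20 CPM or more. The simulation held no amplification noise, so it does not show how well the intervals describe these libraries. Alternatives were DESeq2 1.42.0 size factors and 4 other scalings, 4 filters, unrounded counts, log2(CPM + 1) and a floor of 1 count. All 171 genes of 8 related lists were matched. The text names the 9 genes, NFE2L2, KEAP1 and CUL3, and the genes of each list with the 3 smallest and 3 largest ratios at 20 CPM or more, as needed; marker and ribosomal genes are named beside them. Members and lists were chosen with earlier results of these data known.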

Additional observations from a re-analysis of the deposited data

How the results depend on the processing

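With 1 library per condition no replicate could be left out. No paired analysis was possible because each group has a single library. With the 4 other scalings 5 members were lower by 2-fold or more and 1 higher, as with TMM, and a floor of 1 count or log2(CPM + 1) made 6 lower, with SLC7A11 at -1.99 and -3.002. Ribosomal protein scaling turned the log2 ratios of TXN (0.29), SRXN1 (1.26), NQO1 (0.017), PGD (0.32), ME1 (0.68) and GCLC (3.14) and the member median (0.97, against 3.26 over all genes). Of 8 members tested 0 were then lower by 2-fold or more and 4 higher, against 0.529% and 94.3% of all 22300 genes tested. Against the same shares the related lists had 6 of 151 genes lower and 117 higher, a median of 2.78, and list medians of 2.67 (glutathione use), 2.26 (other NRF2 targets), 0.31 (ferritin), 2.26 (AKR and ALDH) and 0.85 (glycolysis). At 20 CPM 4 members passed, with 3 lower, 0 higher and a median of -3.20. The same count of 3 lower of 4 held for members with at least 20 counts in 1 library. With the main settings 61 of 134 distinct genes of the 8 related lists were lower and 15 higher (median -0.86), against 26.7% and 22.0% of all genes tested. The higher count was 23 of 165 at 1 CPM or without a filter (25.3% over all genes) and 7 of 75 at 20 CPM (18.5% over all genes). It was 9 of 105 among genes with under 90% of counts in 1 exon block, for which no share over all genes was computed at 5 CPM. The members' share was 0.548% (TGF-beta) and 0.370% (untreated) when the 10 top genes of either library left the total, and 0.00620% and 0.0366% without GCLM. The alternatives without GCLM, by exon block and by 20 counts were added after seeing the data, and without GCLM the member median was -2.54. Depth limits SLC7A11, SRXN1, ME1, GCLC, TXNRD1 and the NRF2 regulators to large differences.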

Other observations

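Antioxidant enzymes and other protective proteins not chiefly described as NRF2 targets were mixed. Of 16 tested genes, 6 were lower by 2-fold or more in TGF-beta-treated cells and 4 higher, against 26.7% and 22.0% of all genes tested. Their median log2 ratio was -0.06, a sign that depends on the scaling. The median was -0.73 with DESeq2 size factors and -1.44 with a filter of 20 CPM. HSPB1, a small heat shock protein, had 15 counts in TGF-beta-treated cells against 409 in untreated cells, at a log2 ratio of -4.43 (-5.28 to -3.69). The metallothionein MT2A, also counted in the ferritin and metallothionein list, had 42 against 682, with -3.69 (-4.17 to -3.24). Near-identical metallothionein genes can share its reads. OXR1, an oxidation resistance protein, had 17 against 5, with 2.10 (0.60 to 3.89).

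Enzymes that use NADPH had 4 of 12 tested genes lower (33.3%) and 3 higher (25.0%), near the 26.7% and 22.0% of all genes tested. Their median was 0.04, also a sign that depends on the scaling. FASN, fatty acid synthase, had 133 counts in TGF-beta-treated cells against 53 in untreated cells, at a log2 ratio of 1.66 (1.19 to 2.15). DHCR7, which makes the last step of cholesterol synthesis, had 13 against 4, with 2.04 (0.34 to 4.11). These ratios have no replicate check.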
